A study of Mus musculus with 4 samples.

Results

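TGF-β signalling is held in check by repressors and feedback inhibitors, and it induces early response factors. Described here are 9 genes of these kinds, across 2 lists of Smad binding regions from the embryonic tooth. The genes are the transcriptional repressors Ski, Skil and Tgif1, the feedback inhibitor Pmepa1, the ubiquitin ligases Smurf1 and Smurf2, and the early response transcription factors Klf10, Junb and Bhlhe40. They were chosen by name for these roles, out of 21523 protein-coding genes placed on the genome. A peak was assigned to a gene where it touched the gene body or the 10 kb on either side, called the locus, and peaks up to 100 kb from the body were read as context.

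The lists come from CUT&RUN, in which an antibody directs micrococcal nuclease to chromatin and the released fragments are sequenced. Molar tooth germs were taken from wild-type CD1 embryos at stage E13.5 (days of embryonic development) and dissociated whole, so dental epithelium and mesenchyme entered the same libraries. Of the 4 libraries, 2 were made with an antibody against pSmad1/5 (Smad1 and Smad5 phosphorylated by BMP receptors) and 2 with an antibody against pSmad3 (Smad3 phosphorylated by TGF-β and activin receptors). The groups shared genotype, stage and tissue and differed in the antibody. The labels do not say how many embryos went into a library. The authors deposited 1 list of common peaks per antibody, with 10741 pSmad1/5 peaks and 7905 pSmad3 peaks. No value per library was used here, so no result below has an error between libraries, and binding in fewer cells cannot be told apart from weaker binding in each cell. A locus without a peak has no deposited call, which does not show that signal was absent. The depth of the libraries is unknown, expression was not measured, and the labelled tissue could therefore not be checked against its marker genes.

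After receptor activation, Smad3 joins Smad4 in the nucleus, binds short DNA elements and recruits coactivators or corepressors. Ski and Skil (SnoN) bind the Smad complex and turn it towards histone deacetylation, and Tgif1 is a homeodomain corepressor of the same complex. Pmepa1 is a membrane protein that sequesters receptor-activated Smads, and the Smurf ligases mark receptors and Smads for degradation. Klf10, Junb and Bhlhe40 are transcription factors whose genes respond within the first wave of TGF-β stimulation in many cell types. In the early tooth, BMP and TGF-β family ligands pass between epithelium and mesenchyme.

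The promoter sequences of Junb and Ski are shown because a pSmad3 peak covered the first and another lay close to the second. RefSeq promoter windows (GRCm38.p6, the assembly of mm10) run from 250 bases before a gene's start to 50 after it, and 5 of the 9 genes, namely Junb, Ski, Smurf1, Smurf2 and Tgif1, matched the table. Both sequences are on the minus strand and are written 5′ to 3′. The Junb window is chr8:84978699-84978998, and capitals mark TGTCA, the core element of Tgif homeodomains, found here on the opposite strand as TGACA. The Ski window is chr4:155222486-155222785, and capitals mark GGCGC, a short GC-rich element that Smad proteins can bind, on either strand.
Junb: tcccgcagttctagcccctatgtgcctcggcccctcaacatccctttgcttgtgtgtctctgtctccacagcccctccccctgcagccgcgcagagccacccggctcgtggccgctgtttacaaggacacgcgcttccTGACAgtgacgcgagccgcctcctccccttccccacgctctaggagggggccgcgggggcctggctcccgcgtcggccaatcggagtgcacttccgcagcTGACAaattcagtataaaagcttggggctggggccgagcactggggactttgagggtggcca
Ski: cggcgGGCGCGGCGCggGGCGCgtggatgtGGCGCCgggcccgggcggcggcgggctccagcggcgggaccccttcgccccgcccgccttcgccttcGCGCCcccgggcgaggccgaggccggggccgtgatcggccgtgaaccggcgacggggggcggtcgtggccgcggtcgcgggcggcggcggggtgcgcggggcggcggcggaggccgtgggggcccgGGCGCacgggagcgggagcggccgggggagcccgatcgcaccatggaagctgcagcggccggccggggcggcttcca

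In the Junb window, TGTCA occurred 2 times, starting 112 and 12 bases before the gene's start, and 45.2% of all 32619 promoter windows hold this motif on one strand or the other. The short Smad element CAGAC was not among the letters of the Junb or the Ski window, where 49.5% of all windows hold it. The Ski window held GGCGC 7 times (37.0% of all windows hold it at least once), of which 2 matches overlap each other in a single GGCGCC palindrome (11.95% of windows). Its G and C content was 85.3%, against a median of 53% over all windows (quartiles 46 and 61.7) and 65.3% for Junb. Neither window held the full Smad palindrome GTCTAGAC, the AP-1 element TGANTCA or the E-box CACGTG, which 0.215%, 7.85% and 7.20% of windows hold. Among the other matched genes, the Smurf2 window held GGCGC 6 times and GGCGCC 2 times, with its nearest peak 21.4 kb away. The Smurf1 window held GGCGC 4 times, with its nearest peak 70.9 kb away, and the 5 Tgif1 windows held it 0 to 2 times. The Klf element CCACCC occurred 2 times in the Junb window, where 31.6% of all windows hold it. These matches describe letters and do not show binding.

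Of the 9 genes, 4 had a pSmad3 peak in the locus (Ski, Pmepa1, Klf10 and Junb), where 24.4% of all protein-coding genes had one. Only Ski and Pmepa1 had a pSmad1/5 peak, 2 of 9 against 27.3% of protein-coding genes. Klf10 and Junb had a pSmad3 peak and no pSmad1/5 peak, a pattern of 10.3% of protein-coding genes, and none of the 9 had pSmad1/5 alone, a pattern of 13.2%. Peaks of both antibodies were found at 2 of the 9 genes, against 14.1% of protein-coding genes. The remaining 5 genes, Skil, Tgif1, Smurf1, Smurf2 and Bhlhe40, had neither, as had 62.4% of protein-coding genes. The median gene of the 9, like the median protein-coding gene, had 0 peaks of each antibody. With 9 genes chosen by name and 1 list per antibody, these counts were not tested and are descriptions.

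**Figure D1:**
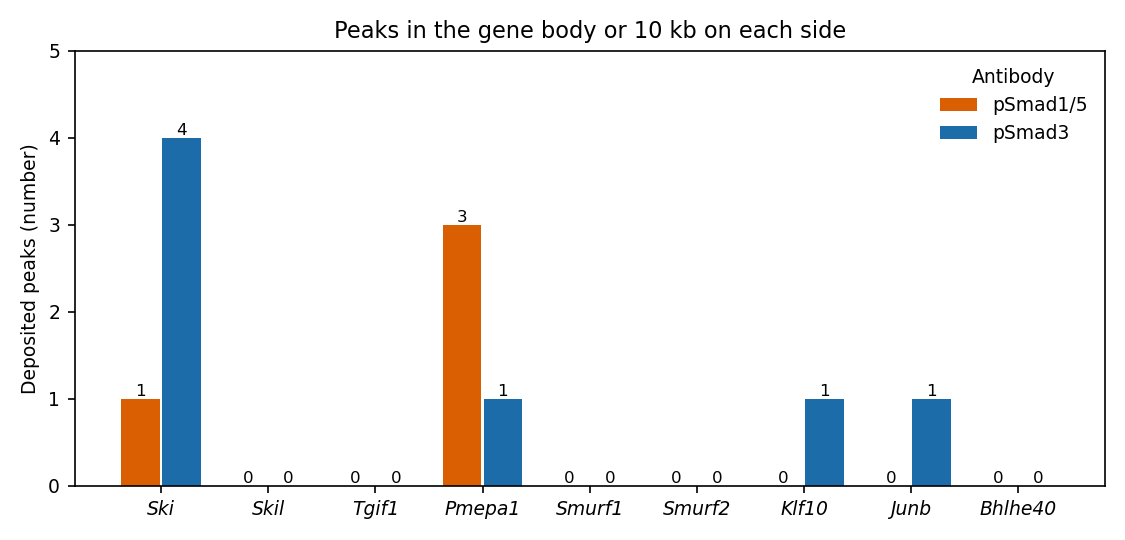
Number of deposited peaks (vertical axis) in the gene body or 10 kb on each side of each gene (horizontal axis), in orange for pSmad1/5 and blue for pSmad3. Ski had 1 pSmad1/5 and 4 pSmad3 peaks, Pmepa1 had 3 and 1, Klf10 and Junb had 0 and 1, and the other 5 genes had none.

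By role, 1 of 3 repressors, 1 of 1 feedback inhibitor, 0 of 2 ubiquitin ligases and 2 of 3 early response factors had a pSmad3 peak. The corresponding counts for pSmad1/5 were 1, 1, 0 and 0. Over all protein-coding genes the shares were 24.4% for pSmad3 and 27.3% for pSmad1/5. With 1 to 3 genes per role, the roles cannot be compared. The genes differ in size, from 1.84 kb for Junb to 100.7 kb for Smurf2, and longer loci can hold more peaks. Junb had its pSmad3 peak in a locus of 21.8 kb, a length at which 20.5% of protein-coding genes (the tenth of genes most like it in length) had one. Smurf1 and Smurf2 had no peak in loci of 109.4 and 120.7 kb, a length at which 30.4% had a pSmad3 and 33.5% a pSmad1/5 peak. Ski and Pmepa1, with loci of 88.5 and 72.3 kb, were the genes with the most peaks, 5 and 4 of the 11 in the 9 loci, and the part of locus length in these counts was not tested.

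Ski, whose product represses Smad-dependent transcription, had the most pSmad3 peaks of the 9, with 4 in a locus of 88.5 kb. Of all protein-coding genes, whose median locus is 37.4 kb, 0.980% had that many or more. The share among genes of like length is not given here. The gene lies on the minus strand of chromosome 4 (155154075 to 155222535), so its start is the higher coordinate. The peaks stood on both sides of the gene and inside it.

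Upstream of Ski, a pSmad3 peak of 2579 bp (chr4:155223154-155225732) began 619 bp before the gene's start and 369 bp from the edge of the promoter window printed above. It overlapped the lncRNA gene Gm42364. Its maximum signal of 16 was above that of 76.9% of pSmad3 peaks, and its total signal of 27332 was above 44.8%. The maximum lay 2.90 kb before the start. A second upstream peak of 6041 bp (chr4:155231254-155237294) lay 8719 bp before the start, over the lncRNA gene Gm52713, with a maximum of 12. The nearer of these peaks thus had the higher maximum and the shorter width, and neither met a pSmad1/5 peak within 35.1 kb.

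Inside Ski, a short pSmad3 peak of 701 bp (chr4:155157425-155158125) lay 3.35 kb from the gene's 3′ end. Its maximum of 15 was above 67.6% of the list. The table used here gives no exons, so whether this peak is exonic or intronic was not determined.

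Beyond the 3′ end of Ski, the widest of these peaks ran over 13523 bp (chr4:155133621-155147143) inside the neighbouring gene Morn1, 6932 bp from Ski. Its total signal of 71054 was above 91.6% of the list, while its maximum of 14 was above 54.8%. It was the single place in the 9 loci where deposited peaks of the antibodies overlapped. A pSmad1/5 peak of 1865 bp (chr4:155145134-155146998) lay wholly within it, 7077 bp from Ski, as 1 of 4 pieces of a call that spans 23.1 kb. In all, 3 of those pieces overlapped the pSmad3 peak, by 4727 bp together. The pSmad1/5 call had a total of 167369, above 89.8% of its list, and a maximum of 16, equal to the list median of 16. Its deposited maximum region was 11.7 kb long, and the total is too low for a signal of 16 over all of it. At this place the total signals of both antibodies were thus high and the maxima near the middle of their lists. Both peaks touch Morn1 itself, and the lists do not say which gene they belong to.

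Pmepa1, a target and inhibitor of the TGF-β branch, was the member with the most pSmad1/5 peaks. It had 3 pSmad1/5 peaks, a number that 4.13% of protein-coding genes of all lengths reached or passed, and 1 pSmad3 peak. All 4 touched the gene body (chromosome 2, 173224458 to 173276731). The promoter table gives no strand for it, so its ends are named by coordinate.

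At the higher end of Pmepa1, a pSmad1/5 call was deposited in 2 pieces, of 2188 bp (chr2:173260402-173262589) and 3711 bp (chr2:173274072-173277782). The second crossed the gene's end and ran 1051 bp beyond it. The call's total of 143924 was above 87.0% of the pSmad1/5 list and its maximum of 16 equalled the list median. The gap between the pieces measured 11.5 kb. The only pSmad3 peak of Pmepa1, 1333 bp wide (chr2:173264454-173265786), lay inside that gap, with 1865 bp to one piece and 8286 bp to the other. The peaks therefore count as not overlapping, although the deposited maximum region of the pSmad1/5 call, 15.2 kb long, spans the pSmad3 peak. The call's total is too low for a signal of 16 over that whole region. Whether the maximum was reached at the pSmad3 peak is therefore unknown. With pieces of a call joined, 2 of the 7 pSmad3 peaks in the 9 loci overlapped pSmad1/5, in place of 1 of 7. The share of all pSmad3 peaks that overlap pSmad1/5 is not given here, so these counts cannot be called high or low. The pSmad3 peak of Pmepa1 carried the lowest maximum of the 7, at 11, above 8.58% of its list. The deposited region of that maximum (chr2:173268067-173268069) lay outside the peak, so the value is not one of the peak itself.

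The third pSmad1/5 peak of Pmepa1 (chr2:173228941-173232986) lay inside the gene, 4483 bp from its lower end, as a call of its own. Its total of 41084 was above 20.8% of the list and its maximum of 14 above 12.1%. Both were the lowest deposited values among the pSmad1/5 peaks in the 9 loci. The other pSmad1/5 peaks are pieces that carry the values of whole calls, so whether this peak was weaker than those pieces is unknown.

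Junb, an AP-1 subunit that cooperates with Smads at many promoters, had 1 pSmad3 peak, which covered the gene's start. The peak ran over 5088 bp (chr8:84978160-84983247) and took in 589 bp of the gene's 1.84 kb and the whole promoter window printed above. Of all promoter windows, 3.84% were overlapped by a pSmad3 peak and 3.10% by a pSmad1/5 peak. The maximum of 14, above 54.8% of the pSmad3 list, lay 3.41 kb before the start rather than in the window. The total of 24291 was above 28.1% of the list, the lowest of the 7 pSmad3 peaks. The nearest pSmad1/5 peak lay 35.6 kb from Junb, inside Mast1. Of the 9 promoter windows of the 5 matched genes, 5 of which belong to Tgif1, the Junb window was the one a peak overlapped.

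Klf10, a zinc finger repressor whose targets include the inhibitory Smad7, had 1 pSmad3 peak outside the gene. It began 5529 bp above the higher-coordinate end (gene at chromosome 15, 38291464 to 38300711) and ran over 7149 bp (chr15:38306240-38313388) within the lncRNA gene Gm35248. Klf10 was its nearest protein-coding gene. The maximum of 17 was the highest among the 11 peaks in the 9 loci on its own list's scale, above 82.6% of pSmad3 peaks, and the total of 36113 was above 70.3%. Just outside the locus, 14.2 kb from the gene, a pSmad1/5 peak of 2032 bp (chr15:38314913-38316944) enclosed a pSmad3 peak of 301 bp. So pSmad3 alone at Klf10 holds for the 10 kb rule and not for one of 50 kb. With the gene body alone or 5 kb on each side, Klf10 had no peak.

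**Figure D2:**
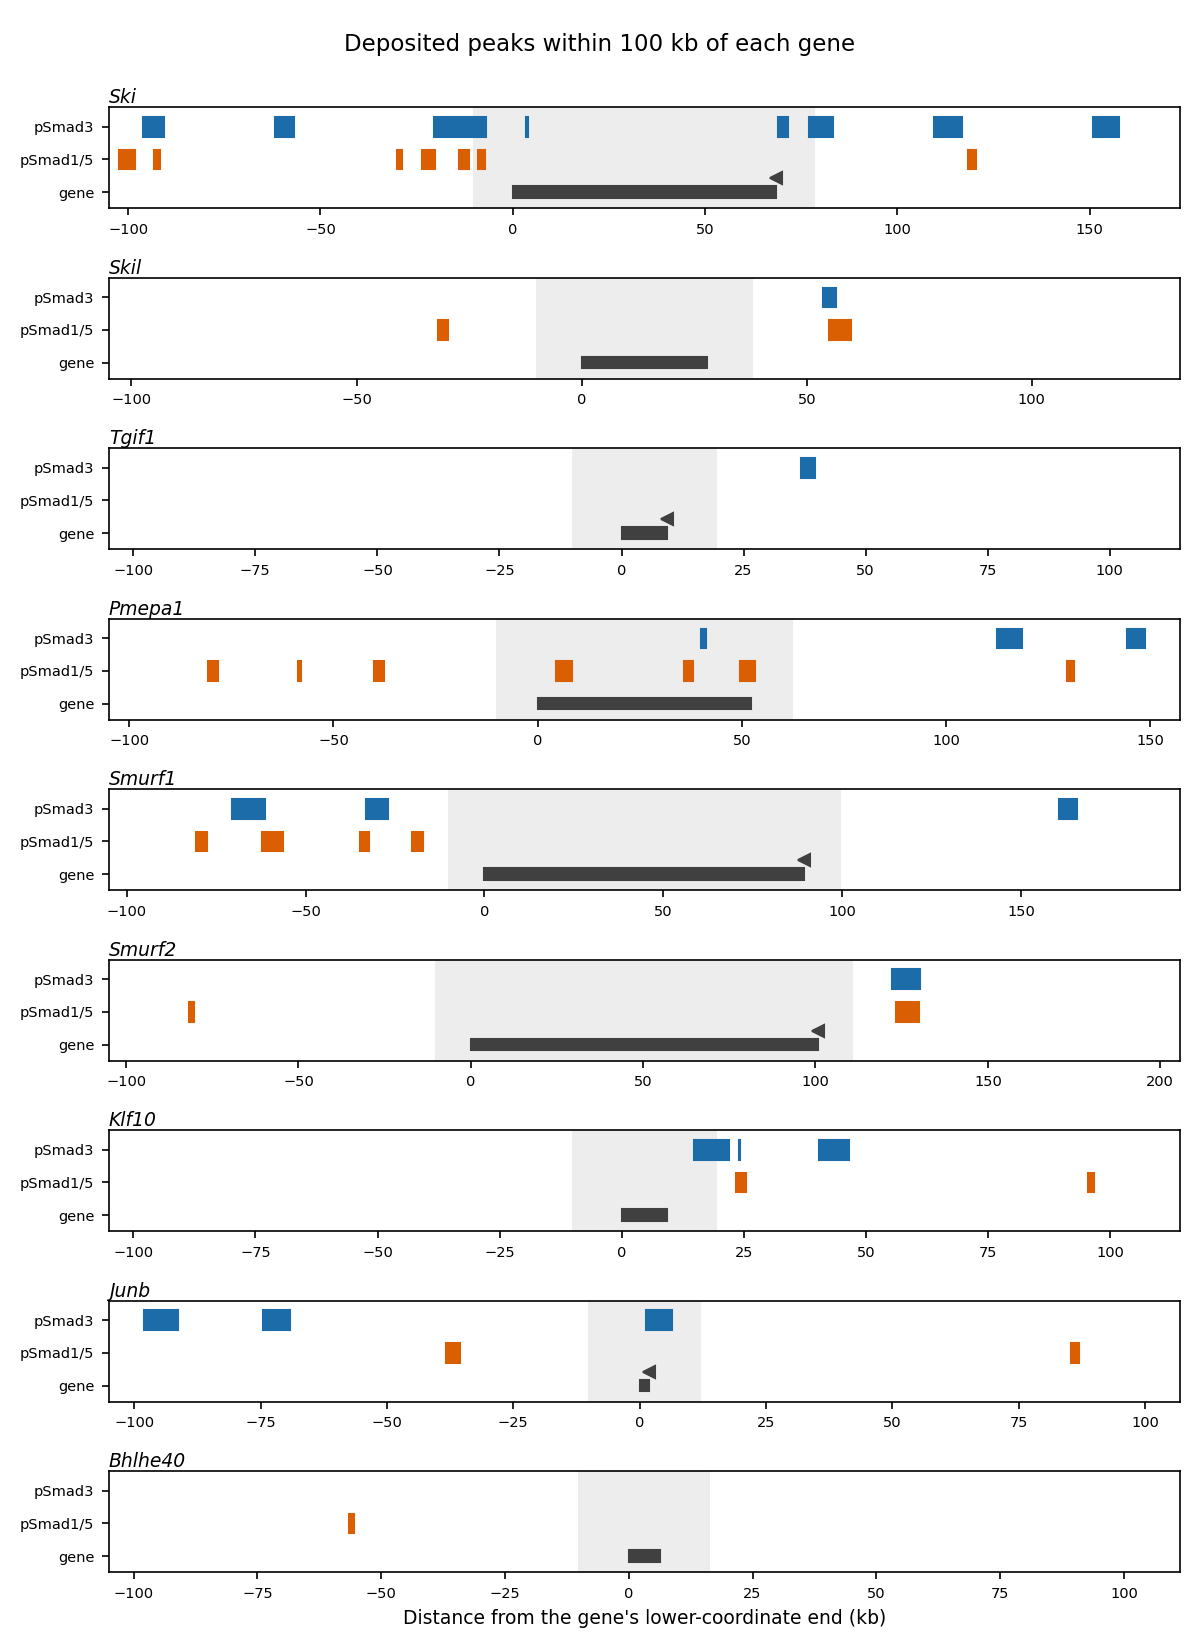
Deposited peaks within 100 kb of each gene, placed by distance in kb from the gene's lower-coordinate end (horizontal axis), with pSmad3 in blue, pSmad1/5 in orange, the gene body in dark grey and the 10 kb on each side shaded. Arrowheads mark the start and direction of genes whose strand is known. Ski is flanked on both sides, the pSmad3 peak of Pmepa1 sits between pSmad1/5 pieces, and Bhlhe40 has a single pSmad1/5 peak.

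The 10 kb rule set several of these counts. The pSmad3 peaks inside it but beyond 5 kb lay 8719 bp and 6932 bp from Ski and 5529 bp from Klf10. The pSmad1/5 peak 7077 bp from Ski was also just inside it. The nearest outside it were a pSmad1/5 piece 11.3 kb from Ski and the overlapping pair 14.2 and 14.7 kb from Klf10. With 50 kb on each side, 8 of 9 genes had a pSmad3 peak and 7 of 9 a pSmad1/5 peak, against 42.4% and 47.3% of protein-coding genes. Within 100 kb, 8 of 9 had pSmad3 and 8 of 9 had pSmad1/5, against 54.2% and 59.9%. In the gene body itself, 3 of 9 had pSmad3 and 1 of 9 had pSmad1/5, against 16.8% and 18.4%. Each window contains the narrower ones, so these counts are not separate observations. The median locus was 47.9 kb for the 9 genes and 37.4 kb for all protein-coding genes, and none of these differences was tested.

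**Figure D3:**
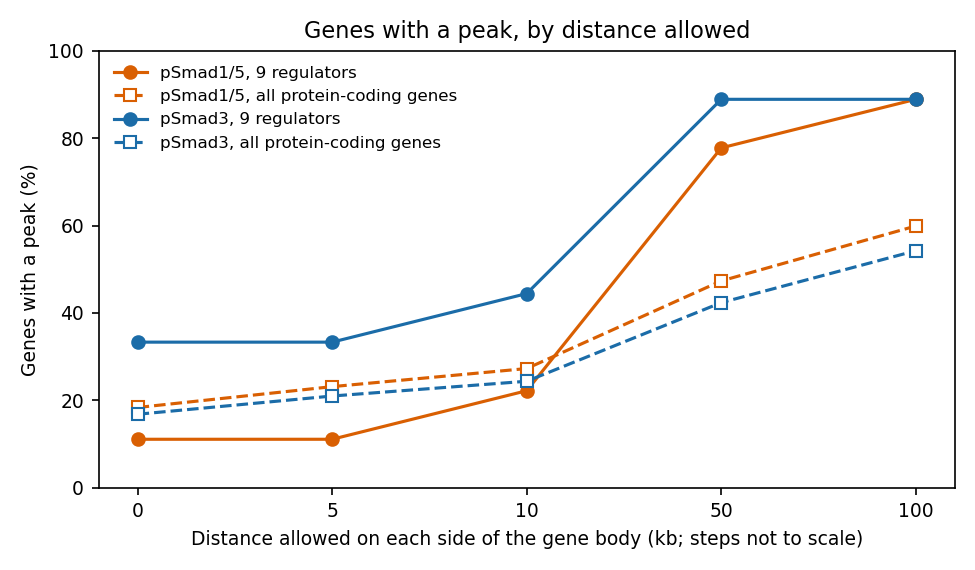
Percentage of genes with a peak (vertical axis) for 0, 5, 10, 50 and 100 kb allowed on each side of the gene body (horizontal axis, steps not to scale), with filled points for the 9 genes and open squares for all 21523 protein-coding genes. The pSmad3 share of the 9 genes was above the share of all genes at each distance, and the pSmad1/5 share was below it up to 10 kb and above it at 50 and 100 kb.

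The genes without a peak in the locus differed in how far away the next one was. Smurf2, a ligase that targets receptor and Smad complexes, had its nearest peaks upstream of its start at 106920747 on chromosome 11. A pSmad3 peak of 8139 bp (chr11:106942348-106950486), 21.6 kb before the start, enclosed a pSmad1/5 peak of 6487 bp (chr11:106943527-106950013). The pSmad3 total of 55104 was above 86.6% of its list, while its maximum of 13 equalled the list median. The pSmad1/5 maximum of 18 was above the list median of 16, and the pSmad1/5 total was above 60.2% of its list. The pair touched no annotated gene, and Smurf2 was its nearest protein-coding gene. By total signal this pSmad3 peak ranked above 6 of the 7 pSmad3 peaks inside the 9 loci.

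Smurf1, the paralog that acts on BMP and TGF-β Smads and receptors, had its nearest peaks beyond its 3′ end, inside Trrap, a scaffold subunit of histone acetyltransferase complexes. The pSmad1/5 call there lay 17.3 and 32.3 kb from Smurf1 in 2 pieces, with a total above 81.2% of the list, and a pSmad3 peak at 27.0 kb met the farther piece over 700 bp. A second overlapping pair lay in Trrap at 56.4 and 61.2 kb. No peak was called over the 89.4 kb of Smurf1 itself.

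Skil, the paralog of Ski, had no peak within 25.8 kb. Beyond that distance a pSmad3 peak (chr3:31148678-31151662) and a pSmad1/5 peak (chr3:31150046-31154940) overlapped by 1617 bp over Cldn11, a tight junction gene. The pSmad3 maximum there was 21, above the list's upper quartile of 15, although its total was above only 14.9% of the list. Ski and Skil thus differed in these lists, with 5 peaks of either antibody in the locus of one and 0 in the other.

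Tgif1 had a single peak within 100 kb, a pSmad3 peak of 2811 bp located 27.5 kb before its start over Gm26510 (maximum 11). The nearest pSmad1/5 peak was 110.1 kb away. None of its 5 promoter windows came within 27.2 kb of a peak. Bhlhe40, a basic helix-loop-helix repressor, had 1 pSmad1/5 peak of 989 bp at 55.5 kb (chr6:108604093-108605081), with a total above 4.51% of its list. Its nearest pSmad3 peak lay 1043 kb away. Of protein-coding genes, 45.8% had no pSmad3 peak within 100 kb and 9.91% had none as near as Bhlhe40 or nearer.

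In their own lists, the peaks in the 9 loci were not among the extremes of maximum signal. The 4 pSmad1/5 peaks had maxima of 14 to 16, none above the list median of 16. The 7 pSmad3 peaks had maxima of 11 to 17, with 5 above the list median of 13. No peak in the loci had a maximum over 2 times the list median, which 8.98% of pSmad1/5 and 5.97% of pSmad3 peaks had. With 4 and 7 peaks, shares this small leave few or none to be found, so this does not set the loci apart. By total signal the median member peak stood above 87.0% of the pSmad1/5 list and 54.4% of the pSmad3 list. The pSmad1/5 figure rests on the calls of Ski and Pmepa1 that were deposited in pieces, since a piece carries the total of its whole call. The deposited maximum region lay inside the peak for 1 of the 4 pSmad1/5 and 6 of the 7 pSmad3 peaks. A peak deposited on a single line can thus also carry signals of a larger call.

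**Figure D4:**
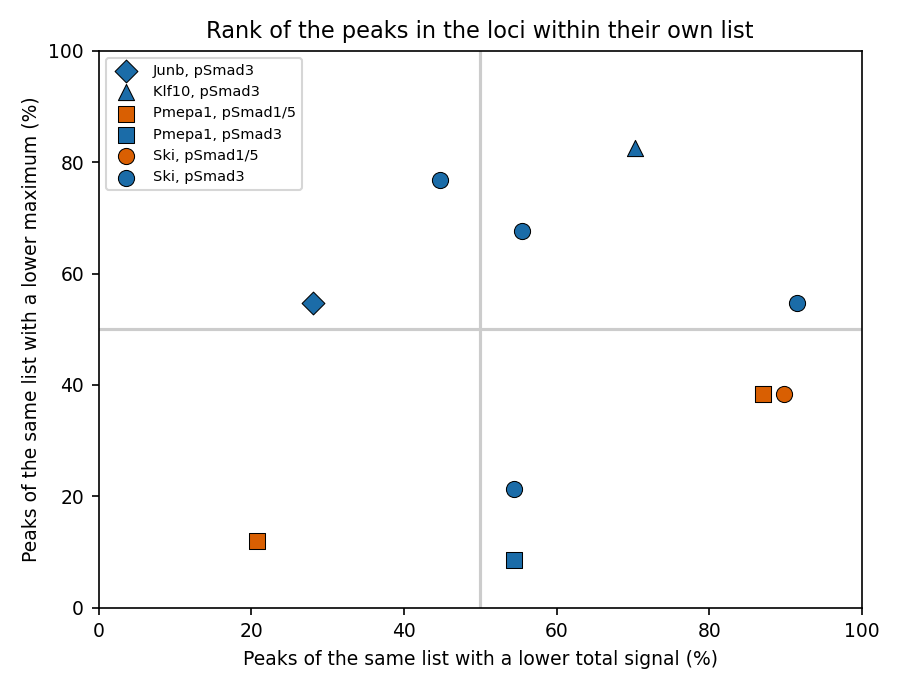
Each point is a peak in a locus, placed by the percentage of its own list with a lower total signal (horizontal axis) and with a lower maximum (vertical axis), coloured by antibody (orange pSmad1/5, blue pSmad3) with a marker shape for each gene. The 2 Pmepa1 pieces of a single pSmad1/5 call coincide. Klf10 stands highest by maximum, above 82.6% of pSmad3 peaks, and the widest Ski peak by total, above 91.6%.

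Of 44 other TGF-β regulators (signalling and inhibitory Smads, corepressors, ubiquitin ligases and deubiquitinases, membrane-level modulators, paralogs of the 9 and immediate-early genes), 11 had a pSmad3 peak (25%) and 10 a pSmad1/5 peak (22.7%), beside 24.4% and 27.3% of protein-coding genes. Of the 44, 6 had peaks of both antibodies, 5 had pSmad3 alone, 4 had pSmad1/5 alone and 29 had neither. The shares of protein-coding genes with these patterns were 14.1%, 10.3%, 13.2% and 62.4%. The difference between the 44 genes and the 9 was not tested.

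Among the 44, Cdkn1a, an inhibitor of cyclin-dependent kinases, had the pSmad3 peak of highest total (chr17:29094689-29104109, above 95.4% of the list, maximum 25). Bhlhe41, the paralog of Bhlhe40, followed with a pSmad3 peak 6167 bp from the gene (above 85.5%, maximum 14). The inhibitory Smads Smad7 and Smad6 each had 1 pSmad3 peak, and Smad6 also had 1 pSmad1/5 peak. Smad3 itself had 2 peaks of each antibody, the pSmad1/5 peaks from 1 call. The Ski-related corepressor Skor1 had 2 pSmad1/5 peaks and 1 pSmad3 peak, and the AP-1 gene Fosl2 had 1 of each. Sin3a, a corepressor scaffold that Ski family proteins recruit, had 1 of each too. Nedd4l, a ubiquitin ligase for activated Smads, had 3 pSmad1/5 peaks from 2 calls and no pSmad3 peak. Smad2, Smad4, the ligase gene Rnf111 and the TGF-β target gene Ccn2 had neither.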

How the data were processed

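CUT&RUN was run on 4 libraries, 2 per antibody. Per the labels' protocols, digestion lasted 30 min and reads were paired-end, 100 bp. Per the submitters' processing notes, the tools were SEACR, Bowtie2, deepTools, bedtools and SAMtools and the build was mm10. The labels and files give no settings, threshold or control, nor how replicates were joined. For each antibody the authors deposited 1 list, with the total and maximum coverage signal of each call in their own scaling. These signals were used within a list only, to rank peaks and to set maxima against the list median. At the Ski and Pmepa1 calls in pieces, the total was also set against the maximum over the maximum region. That step takes the total as signal summed over bases. Lines sharing total, maximum and maximum region were read as pieces of 1 call (8380 pSmad1/5 and 7682 pSmad3 calls), and each line was counted as a peak.

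Genes came from the RefSeq table of GRCm38.p6 (chromosomes 1 to 19 and X, without the first 3 Mb), and strand and promoter sequence from its promoter table. CD1 sequence was not used. Overlap meant at least 1 bp. Overlap counting was tested on simulated intervals (Python 3.11.15, pandas 2.3.3). The members and lists were chosen with earlier results of these data known, and no test was run. The genes named are all 9 members, up to 12 of the 44 other regulators with the highest total-signal rank, the genes touched by peaks in the loci, and the nearest protein-coding genes of context peaks. Genes of the 44 named outside this rule, Nedd4l, Smad2, Smad4, Rnf111, Ccn2, Tgif2 and Klf11, were chosen after their values were seen. Alternatives changed the locus width, the overlap, the peak lists and the unit counted.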

Additional observations from a re-analysis of the deposited data

How the results depend on the processing

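No paired analysis was possible because each antibody has 1 list common to its 2 libraries, with no column per replicate, and leaving out a replicate could not be done for the same reason. Of 48 recomputed counts, 28 stayed within 1.5 times the count reported and 20 did not. Most of the latter came from the locus width, which changes how many peaks can be reached. With the gene body alone, genes with pSmad1/5 went from 2 to 1, genes with both antibodies from 2 to 1, pSmad3 peaks from 7 to 3, and other regulators with pSmad3 from 11 to 7. With 5 kb the first 2 counts were again 1 and 1, and pSmad3 peaks numbered 4. Under both of these settings Klf10 had no pSmad3 peak, which left Ski, Pmepa1 and Junb. With 50 kb, 7 genes had pSmad1/5, 8 had pSmad3 and 7 had both, with 16 pSmad1/5 and 14 pSmad3 peaks, and 25 and 22 of the other regulators had pSmad1/5 and pSmad3. With 100 kb, added after the data were seen, the genes with pSmad1/5, pSmad3 and both numbered 8, 8 and 7. The share of all protein-coding genes with both antibodies at 50 or 100 kb is not given here. With only peaks at or above the median total signal of each list, 6 other regulators had pSmad1/5 and 4 had pSmad3, fewer peaks being left. Junb lost its pSmad3 peak there, which left Ski, Pmepa1 and Klf10. Joining the pieces of calls, also added after the data were seen, raised the overlapping pSmad3 peaks from 1 to 2. Peak midpoints and the removal of peaks with high maxima kept Ski, Pmepa1, Klf10 and Junb for pSmad3 and Ski and Pmepa1 for pSmad1/5. Depth is unknown, so loci without a call cannot be read as unbound.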

Other observations

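Tgif2, the paralog of Tgif1, had no peak of either antibody in the locus, as Tgif1 had none. Klf11, the paralog of Klf10, had none either, whereas Klf10 had a pSmad3 peak. Jun and Jund, the AP-1 genes related to Junb, each had 1 pSmad1/5 peak and no pSmad3 peak, whereas Junb had a pSmad3 peak and no pSmad1/5 peak. The Jun peak (chr4:95051984-95053176, maximum 18) crossed an end of the gene, and the Jund peak lay 9294 bp away. Bhlhe41 had 1 pSmad3 peak and Bhlhe40 none. Ldlrad4, a membrane protein of the Pmepa1 family, had 2 pSmad1/5 peaks and 1 pSmad3 peak, where Pmepa1 had 3 and 1. These pairs were not tested, and a difference in deposited calls does not show a difference in signal.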
